A study of Arabidopsis thaliana with 8 samples.

Results

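The genes of ethanol fermentation, of ethanol and acetaldehyde use and of the low oxygen response were followed in Arabidopsis thaliana seedlings given ethanol as an inducer. They are 10 loci chosen by name: the pyruvate decarboxylases PDC1 (AT4G33070), PDC2 (AT5G54960) and PDC3 (AT5G01330), the alcohol dehydrogenase ADH1 (AT1G77120), the aldehyde dehydrogenases ALDH2B4 (AT3G48000) and ALDH2B7 (AT1G23800), the sucrose synthase SUS4 (AT3G43190), the haemoglobin HB1 (AT2G16060), and the transcription factors HRA1 (AT3G10040) and LBD41 (AT3G02550). All probes annotated to these loci were taken, 19 of the 43603 probes measured. Of the 10 genes, 8 passed the filter on dim probes and were among the 21471 genes tested. PDC3 and LBD41, with 1 probe each, were well above background in 0 of 16 channels and gave no test.

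The tested line, Alc::LHY, carries an additional copy of the clock gene LHY under an ethanol-responsive switch in the Col-0 background. It was compared with Col-0 wild type, and both lines of an array share 1 labelled treatment. The seedlings spent 2 weeks on MS-agar in 12 h photoperiods and were then kept in continuous light for 17 h. Ethanol followed as 5 ml on the roots, and a 3 cm2 paper wetted with ethanol and changed every hour kept up the vapour. RNA of whole seedlings was taken at 0, 2, 4 and 8-9 h, with 2 arrays of 2 colours per time, called replicate S (last time 9 h) and replicate I (last time 8 h). Alc::LHY RNA was in Cy5 in replicate S and in Cy3 in replicate I. Dye, replicate and slide are therefore a single split and cannot be told apart. Both lines met ethanol. A line with the switch but without the added LHY, and seedlings kept for the same hours without ethanol, were not analysed here. The ethanol strength and the promoter that drives the switch are not given in the sources used here, nor whether the replicates were separate cultures, so that the p-values reflect variation among these arrays and may be technical only.

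Fermentation lets a plant cell go on making ATP by glycolysis when respiration lacks oxygen: pyruvate decarboxylase splits pyruvate into acetaldehyde and carbon dioxide, and alcohol dehydrogenase reduces the acetaldehyde to ethanol, which returns the NAD+ that glycolysis needs. The last step can run backwards, so ethanol given from outside can be oxidised to acetaldehyde, which aldehyde dehydrogenases turn into acetate. Low oxygen stabilises group VII ERF transcription factors such as RAP2.12, which switch on a core set of genes that holds ADH1, PDC1, SUS4, HB1, HRA1 and LBD41. LHY is a MYB-like repressor of evening genes in the circadian clock.

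The 8 arrays had median signals of 54 to 73 units in Cy3 and 121 to 146 units in Cy5, with 0 saturated spots. LHY itself had 1 dim probe, with a ratio of Alc::LHY over wild type at 2 h of 0.97 in replicate S and 0.17 in replicate I on the log2 scale. In wild type it was then too dim to stand well above background. The lower bound of 1.49-fold for Alc::LHY is thus one for the mean of both arrays, and replicate I alone lies below it. The LHY ratio was not called at 4 h (0.38, adjusted p = 0.0534) or 8-9 h (0.24, adjusted p = 0.181). Within Alc::LHY, the rise of LHY from 0 h was called at 2, 4 and 8-9 h (0.75, 0.79 and 1.01). Within wild type it was called at 8-9 h (0.79). Root markers were above the filter for 9 of 10 genes (PIN2 was not) and green shoot markers for 10 of 10, which is what whole seedlings hold. The summed level of the root markers ranged from 4526 to 7735 units in Alc::LHY channels and from 4412 to 8375 units in wild-type channels. That of the green shoot markers ranged from 3.968e+05 to 6.59e+05 units in Alc::LHY channels and from 5.241e+05 to 9.39e+05 units in wild-type channels. Green shoot markers were lower in Alc::LHY than in wild type for 7 of 10 genes at 4 h and for 7 of 10 at 8-9 h, and 0 were higher, where 19.4% and 20.0% of all genes were called lower. The replicates differed at each time. At 8-9 h the median ratio of the 10 genes was -0.116 in replicate S, with 5 of them above 0, and -0.998 in replicate I, with 0 above 0. At 4 h it was -0.369 in replicate S, with 4 above 0, and -1.11 in replicate I, with 0 above 0. The medians in replicates S and I were 0.115 and -0.569 at 2 h, and 0.219 and -0.0596 already at 0 h. Root markers were called in both directions, 2 higher and 2 lower at 2 h, 1 and 3 at 4 h, and 1 and 2 at 8-9 h. The part of either set in the results was not tested. In whole seedlings, fewer cells of a type and less RNA per cell cannot be told apart.

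Between the lines, PDC2 and HRA1 were called at each time after ethanol among the 8 tested genes, both higher in Alc::LHY. ALDH2B4 and SUS4 were lower in Alc::LHY from 4 h on, and ADH1 was called higher at 4 h, where its 2 arrays had opposite signs. Before ethanol 0 of the 8 differed by limma, with 0 at an unadjusted p under 0.05, where 0.0140% of all genes were called. At 2 h, 2 were called, both higher, where 14.2% of all genes were called and 6.36% called higher. At 4 h, 3 were higher and 2 lower, where 36.7% of all genes were called, 17.3% higher and 19.4% lower. At 8-9 h, 2 were higher and 2 lower, where again 36.7% of all genes were called, 16.8% higher and 20.0% lower. The median log2 ratio of the 8 genes was 0.15, 0.18, -0.18 and -0.19 at 0, 2, 4 and 8-9 h, beside medians of 0.0108, 0.00375, -0.00659 and -0.00784 over all genes. Calls are limma tests with a Benjamini-Hochberg adjusted p under 0.05 over all genes, and ± gives the standard error of the fit, with n = 2 arrays at each time.

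**Figure D1:**
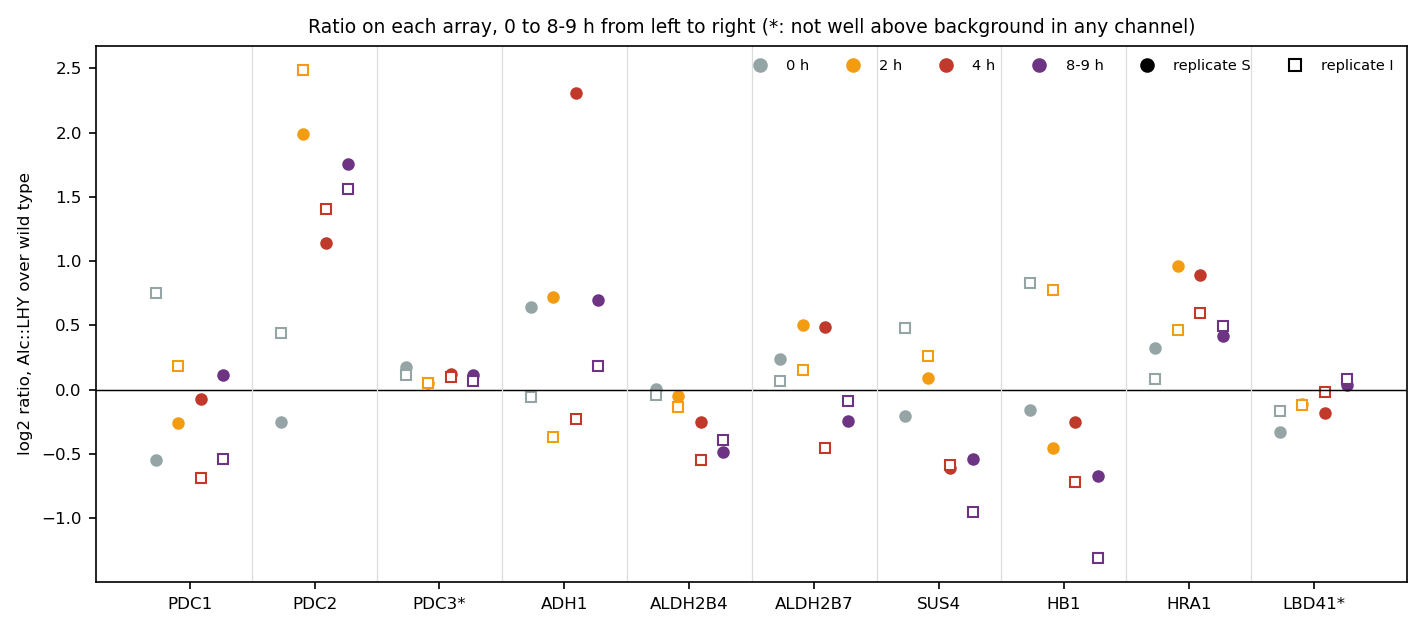
Log2 ratio of Alc::LHY over wild type on each array (vertical axis) for the brightest probe of each of the 10 genes, with the 4 times from left to right within a gene. Filled circles are replicate S and open squares replicate I. PDC2 stands at 1.14 or above on all 6 arrays after ethanol, HRA1 at 0.42 or above, and ADH1 reaches 2.31 on 1 array only.

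PDC2 had the largest ratio of the 8 genes at each time after ethanol. The normalized level of PDC2 (log2 of the channel intensity, in arbitrary units) was 12.35 and 12.84 in the Alc::LHY channels of replicates S and I at 0 h, 14.49 and 14.75 at 2 h, 13.58 and 12.97 at 4 h, and 12.33 and 12.42 at 8-9 h. In the wild-type channels it was 12.60 and 12.39 at 0 h, 12.50 and 12.26 at 2 h, 12.44 and 11.57 at 4 h, and 10.57 and 10.86 at 8-9 h. The lines overlap at 0 h and stand apart at the 3 later times. The share of all genes whose lines stand apart at a time was not computed. For PDC2 and the genes below, such a separation of single channels therefore carries no test. The lead of Alc::LHY at 2 h comes with a high Alc::LHY level and a wild-type level near that at 0 h, whereas at 8-9 h the Alc::LHY level is near that at 0 h and the wild-type level is low.

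On the log2 scale the ratio of PDC2 was 2.24 ± 0.15 at 2 h (adjusted p = 0.000659), 1.27 at 4 h (adjusted p = 0.00167) and 1.66 at 8-9 h (3.15-fold, adjusted p = 0.000725), beside 0.09 at 0 h. Among the 21471 genes these were the 111th, 437th and 246th highest ratios. PDC2 had 3 probes, and all 3 gave calls at each of these times when each was fitted on its own. The second probe by brightness read 1.76, 0.86 and 1.28, and the third 1.52, 0.76 and 1.06. In the scanner software's own ratios the PDC2 probes lay closer together at 2 h, with 2.04, 1.88 and 1.98 in replicate S and 2.53, 2.56 and 2.43 in replicate I from the brightest to the dimmest. Against its own 0 h value the PDC2 ratio had moved by 2.14 ± 0.22 at 2 h, 1.18 at 4 h and 1.56 at 8-9 h, with adjusted p of 0.0068, 0.016 and 0.0072. PDC2 was the single member called in each of these tests, each time upwards. They called 4.12%, 17.3% and 19.1% of all genes, of them 2.04%, 6.80% and 7.28% of all genes upwards. With median centring of each array in place of loess, the PDC2 ratios were 1.77, 0.997 and 1.92 with adjusted p of 0.101, 0.133 and 0.0561, and 0 of all genes were called at 2 h. The moves of the PDC2 ratio from 0 h were not called with median centring either. Over all alternatives the call of the move was lost in 3 of 19 at 2 h, 6 of 19 at 4 h and 1 of 19 at 8-9 h. The highest adjusted p were 0.591, 0.474 and 0.359. The move of the ratio at 2 h missed the threshold without replicate I at 2 h (2.02, adjusted p = 0.0591) or without replicate S at 2 h (2.26, adjusted p = 0.0605), and that at 4 h without replicate S at 0 h (0.93, adjusted p = 0.0745), replicate I at 4 h (1.21, adjusted p = 0.067) or replicate S at 4 h (1.14, adjusted p = 0.0817), and with the scanner software's ratio (1.20, adjusted p = 0.0592).

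**Figure D2:**
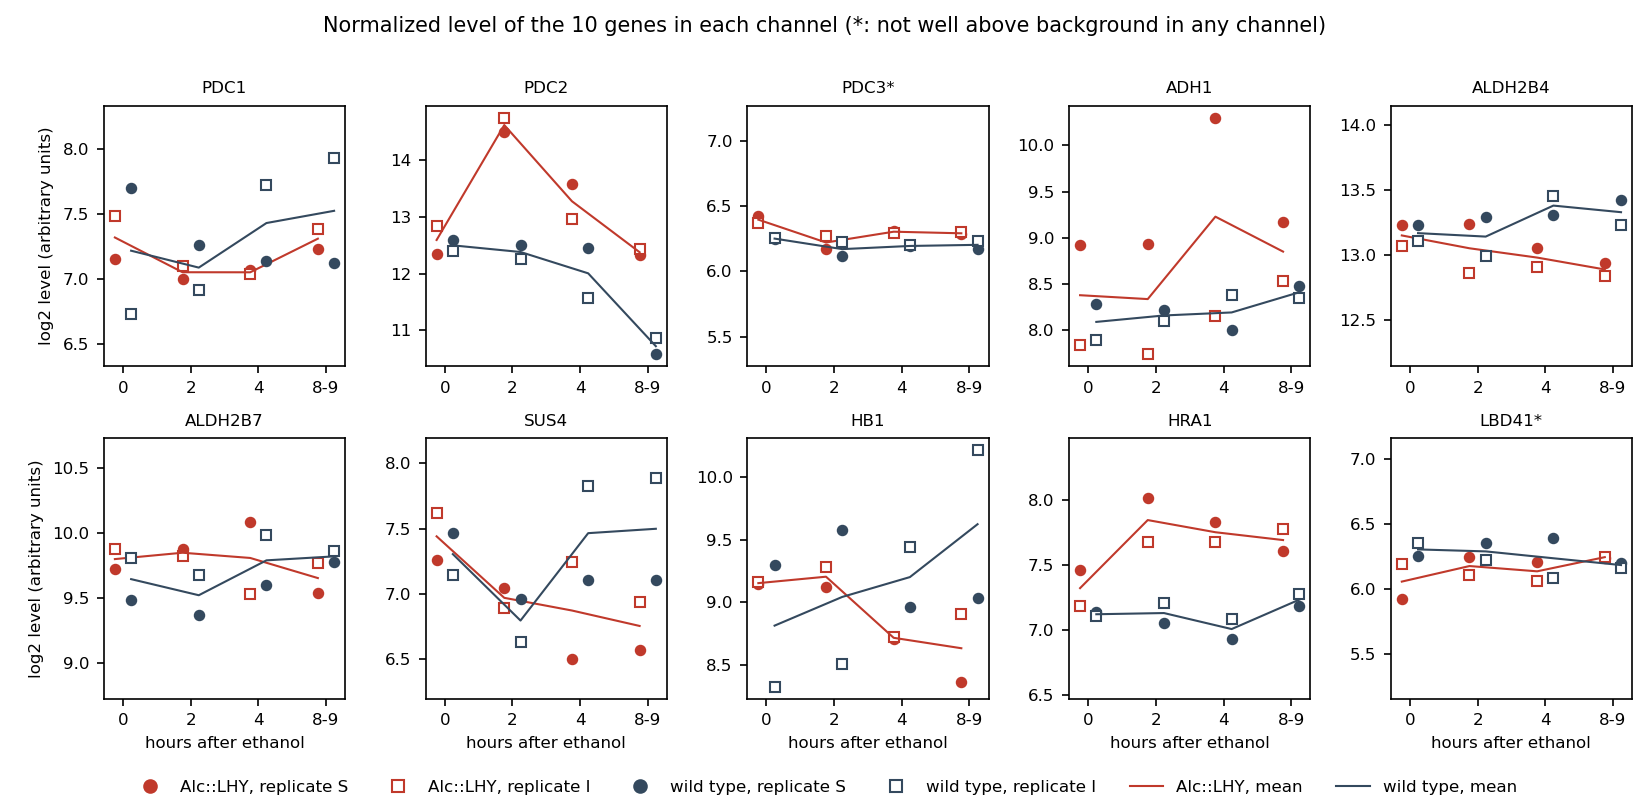
Normalized log2 level (arbitrary units, vertical axis, a scale of its own per gene) against hours after ethanol for each of the 10 genes. Points are single channels (filled circles replicate S, open squares replicate I), lines join the means of 2 channels, and Alc::LHY is red and wild type dark blue. PDC2 peaks at 14.62 in Alc::LHY at 2 h, and its wild-type mean is lowest at 10.72 at 8-9 h.

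No such pattern was resolved for the other pyruvate decarboxylases, of which PDC3 was too dim to test. PDC1, the isoform known for its induction in roots short of oxygen, read 7.004 to 7.49 in the 8 Alc::LHY channels and 6.74 to 7.93 in the 8 wild-type channels. These ranges overlap. Its ratio after ethanol was -0.26, -0.07 and 0.11 in replicate S and 0.19, -0.69 and -0.54 in replicate I, and the fitted ratios of -0.04, -0.38 and -0.21 passed no test. The replicates differed already at 0 h, with -0.55 in replicate S and 0.75 in replicate I. PDC3 stayed at 6.17 to 6.43 in Alc::LHY channels and 6.12 to 6.25 in wild-type channels, a level not well above background in any channel.

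ADH1, which interconverts acetaldehyde and ethanol, differed between the lines on 1 array mainly. In Alc::LHY its level was 8.92 and 7.83 in replicates S and I at 0 h, 8.93 and 7.73 at 2 h, 10.30 and 8.15 at 4 h, and 9.17 and 8.53 at 8-9 h. In wild type it was 8.28 and 7.89 at 0 h, 8.21 and 8.10 at 2 h, 8.00 and 8.38 at 4 h, and 8.47 and 8.34 at 8-9 h. The Alc::LHY channel of replicate S at 4 h is the highest of the 16, and in replicate I the Alc::LHY level is below that of wild type at 0, 2 and 4 h. The ratio of ADH1 was positive at all 4 times in replicate S (0.64, 0.72, 2.31 and 0.70) and was -0.06, -0.37, -0.23 and 0.18 in replicate I. At 4 h the replicates thus had opposite signs, and the fitted ratio of 1.04 ± 0.32 just passed the threshold (adjusted p = 0.0439). It was 0.16 without replicate S at 4 h (adjusted p = 0.605) and 1.92 without replicate I at 4 h. It was also lost without either 0 h array (adjusted p = 0.0527 each) or either 2 h array (adjusted p = 0.0715 each). In all the call was lost in 13 of 19 alternatives, over which the adjusted p ranged from 0.005 to 0.605. All 3 probes of ADH1 showed the same split, with 1.84 and 1.14 at 4 h in replicate S and -0.07 and -0.21 in replicate I for the dimmer probes. The scanner software's own ratios of ADH1 differed most from these in replicate I at 2 h, with -1.30, -0.83 and -0.87 for the 3 probes, against 0.79, 0.67 and 0.67 in replicate S, and the ratio fitted to them at 2 h was -0.25 (adjusted p = 0.727). At 2 h and 8-9 h the ratio was 0.18 (adjusted p = 0.775) and 0.44 (adjusted p = 0.323), and the 8-9 h ratio passed without either 4 h array (adjusted p = 0.0407 each). The move of the ADH1 ratio from 0 h to 4 h passed without replicate I at 4 h (1.63, adjusted p = 0.0186).

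**Figure D3:**
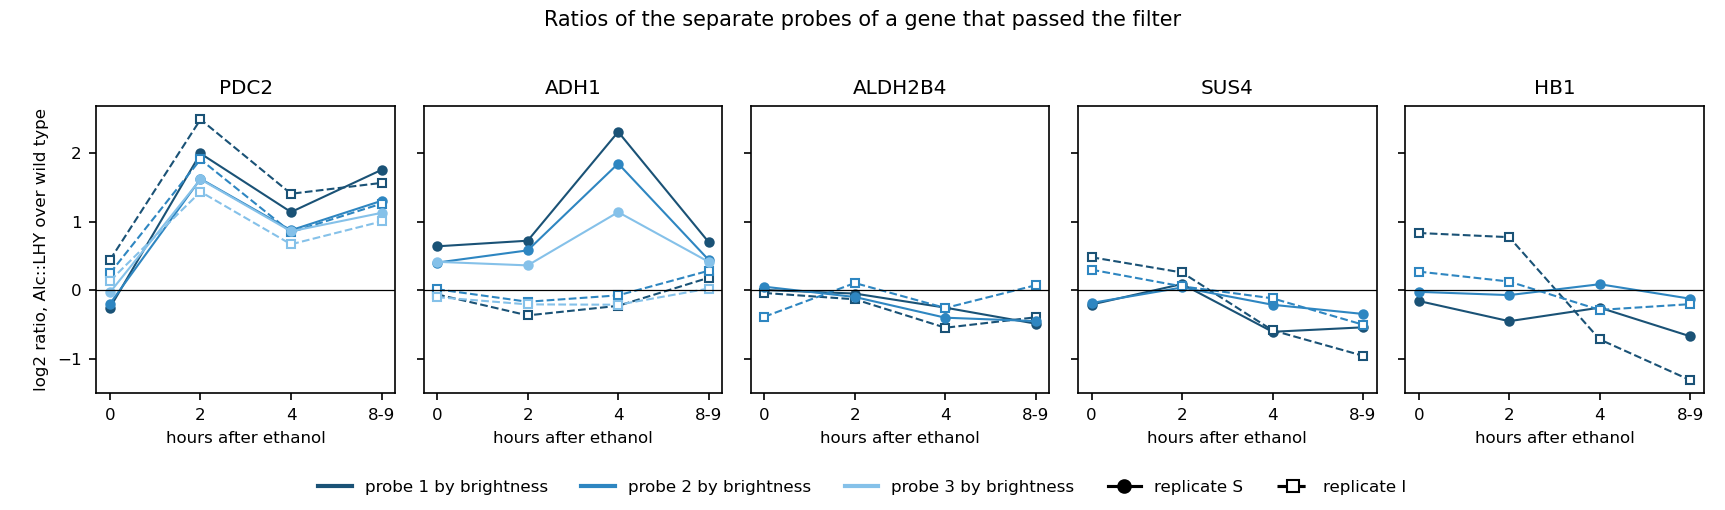
Log2 ratio of Alc::LHY over wild type (vertical axis, shared) against hours after ethanol for the 5 genes with several probes past the filter. Shades stand for the probes in order of brightness, solid lines with filled circles for replicate S and dashed lines with open squares for replicate I. The 3 probes of PDC2 move together in both replicates, the 3 probes of ADH1 rise at 4 h in replicate S alone, and the second probes of HB1 and SUS4 lie nearer 0 than the first at 8-9 h.

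The mitochondrial aldehyde dehydrogenases, which oxidise acetaldehyde to acetate, differed little. ALDH2B4 read 13.06 and 12.91 in the Alc::LHY channels of replicates S and I at 4 h and 12.94 and 12.84 at 8-9 h, against 13.31 and 13.45 at 4 h and 13.42 and 13.23 at 8-9 h in the wild-type channels. The lines do not overlap at these times, but at 0 h and 2 h they do. The ratio of ALDH2B4 was -0.40 ± 0.10 at 4 h and -0.44 at 8-9 h, with adjusted p of 0.0238 and 0.0165. Its second probe gave -0.33 (adjusted p = 0.154) and -0.19 (adjusted p = 0.402), with 0.07 in replicate I at 8-9 h. Without replicate I the 4 h ratio was -0.26 (adjusted p = 0.275) and without replicate S -0.54 (adjusted p = 0.0617). At 8-9 h the ratio was -0.56 without replicate I (adjusted p = 0.0907) and -0.32 without replicate S (adjusted p = 0.223), and over all alternatives the calls were lost in 6 of 18 at 4 h and 7 of 18 at 8-9 h. ALDH2B7 read 9.53 to 10.08 in Alc::LHY channels and 9.37 to 9.98 in wild-type channels, which overlap, and its ratios of 0.33, 0.02 and -0.17 at 2, 4 and 8-9 h passed no test (adjusted p = 0.291, 0.945 and 0.501).

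SUS4, a sucrose synthase that splits sucrose to feed glycolysis, was lower in Alc::LHY at the later times. Its level in Alc::LHY was 7.26 and 7.62 in replicates S and I at 0 h, 7.05 and 6.89 at 2 h, 6.50 and 7.24 at 4 h, and 6.57 and 6.93 at 8-9 h. In wild type it was 7.47 and 7.14 at 0 h, 6.96 and 6.63 at 2 h, 7.10 and 7.83 at 4 h, and 7.11 and 7.89 at 8-9 h. At 8-9 h the lines do not overlap, while at 4 h the replicates overlap although each array has Alc::LHY lower. The ratio of SUS4 was -0.59 ± 0.18 at 4 h and -0.75 at 8-9 h, with adjusted p of 0.039 and 0.0177. The second probe of SUS4 read -0.16 at 4 h and -0.42 at 8-9 h, with adjusted p of 0.349 and 0.0389, and 2 more probes of SUS4 were never well above background. The scanner software's own ratios of SUS4 were larger, with -1.56 and -0.87 in replicates S and I at 4 h and -1.39 and -1.54 at 8-9 h, and the fit to them gave -1.22 (adjusted p = 0.0307) and -1.46 (adjusted p = 0.0203). At 2 h they were 0.19 in replicate S and 1.70 in replicate I, with a fitted 0.95 that passed no test (adjusted p = 0.0905). The 8-9 h call was lost without replicate I at 8-9 h (-0.39, adjusted p = 0.308) and with median centring, 2 of 18 alternatives. The 4 h call was lost in 8 of 18, among them leaving out replicate S at 4 h (-0.66, adjusted p = 0.171), replicate I at 4 h (-0.53, adjusted p = 0.256) or either 2 h array (adjusted p = 0.0667 each). The move of the SUS4 ratio from 0 h was -0.88 at 8-9 h (adjusted p = 0.0527). It passed without replicate S at 0 h (-1.26, adjusted p = 0.0348) or at 8-9 h (-1.24, adjusted p = 0.0478), and so did the move at 4 h without replicate S at 0 h (-1.11, adjusted p = 0.0427).

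HB1, a class 1 haemoglobin that turns over nitric oxide, passed no test between the lines. Its level in Alc::LHY was 8.36 and 8.90 in replicates S and I at 8-9 h, against 9.03 and 10.21 in wild type. At 4 h it was 8.71 and 8.72 in Alc::LHY, against 8.96 and 9.44 in wild type. The lines do not overlap at these times. At 0 h they do, with 9.14 and 9.16 in Alc::LHY against 9.30 and 8.33 in wild type, and likewise at 2 h, with 9.12 and 9.28 against 9.57 and 8.51. The ratio of HB1 was -0.48 at 4 h and -0.99 ± 0.34 at 8-9 h, with adjusted p of 0.299 and 0.0599. The 8-9 h arrays gave -0.67 (replicate S) and -1.31 (replicate I). The second probe of HB1 gave -0.16 at 8-9 h (adjusted p = 0.383). Without either of the 2 h arrays the 8-9 h ratio of the first probe would pass (adjusted p = 0.0473 each).

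HRA1, a trihelix factor that restrains RAP2.12, was higher in Alc::LHY on every array after ethanol. Its level in Alc::LHY was 7.46 and 7.18 in replicates S and I at 0 h, 8.01 and 7.68 at 2 h, 7.83 and 7.68 at 4 h, and 7.61 and 7.78 at 8-9 h. In wild type it was 7.14 and 7.10 at 0 h, 7.05 and 7.21 at 2 h, 6.93 and 7.08 at 4 h, and 7.19 and 7.28 at 8-9 h. Wild type thus stays within a narrow band, and the lines do not overlap at any of the 4 times, 0 h included. The share of all genes for which the lines stand apart was not computed, so this separation carries no test. The ratio of HRA1 was 0.71 ± 0.12 at 2 h (1.64-fold, adjusted p = 0.0113), 0.74 at 4 h (1.67-fold, adjusted p = 0.00421) and 0.46 at 8-9 h (1.37-fold, adjusted p = 0.0239), and its move from 0 h was 0.51 at 2 h (adjusted p = 0.168), 0.54 at 4 h (adjusted p = 0.0701) and 0.26 at 8-9 h, none of them called. Without background subtraction the HRA1 moves at 2 h and 4 h were called (0.86 and 0.68, adjusted p = 0.031 and 0.0341), and with the scanner software's ratio that at 4 h was (1.17, adjusted p = 0.0352), beside 1.24 at 2 h (adjusted p = 0.0566). For HRA1 the scanner software's own ratios were larger, with 1.39 in replicate S and 1.30 in replicate I at 2 h and a fitted 1.34 (adjusted p = 0.0089). The 2 h call was lost without replicate I (0.88, adjusted p = 0.0706) or replicate S at 2 h (0.54, adjusted p = 0.202), the 4 h call without replicate S at 4 h (0.70, adjusted p = 0.0617), and the 8-9 h call without replicate I at 8-9 h (0.25, adjusted p = 0.379) or without the dye term (adjusted p = 0.05). HRA1 had 1 probe. LBD41, a LOB-domain factor of the core low oxygen set, stayed at 5.93 to 6.25 in Alc::LHY channels and 6.08 to 6.39 in wild-type channels, not well above background.

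Since wild type received the same ethanol, its own change from 0 h was read apart from the line ratio. Among the 8 tested genes wild type had 1 called change, a fall of PDC2 at 8-9 h, and 0 calls at 2 h and 4 h by limma, with 0 at an unadjusted p under 0.05 at both times. Of all genes, 0.0607%, 0.841% and 3.82% were called in wild type at 2, 4 and 8-9 h, and 1.49% were called lower at 8-9 h. In Alc::LHY, PDC2 and HRA1 rose at 2 h and HRA1 rose at 4 h, and 0 of the 8 were called at 8-9 h by limma, where 2 (HRA1 and SUS4) had an unadjusted p under 0.05. Of all genes, 14.9%, 28.2% and 34.4% were called in Alc::LHY, and 7.30% were called higher at 2 h and 13.7% at 4 h. The median change of the 8 genes was 0.00, -0.08 and -0.18 in Alc::LHY and -0.07, 0.15 and 0.18 in wild type, beside -0.0261, -0.0163 and -0.0155 over all genes in Alc::LHY and -0.00143, 0.0116 and 0.0172 in wild type. The 3 later times share the 0 h channels of their line. A change from 0 h holds the hours in continuous light along with the ethanol, and the 2 cannot be told apart.

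**Figure D4:**
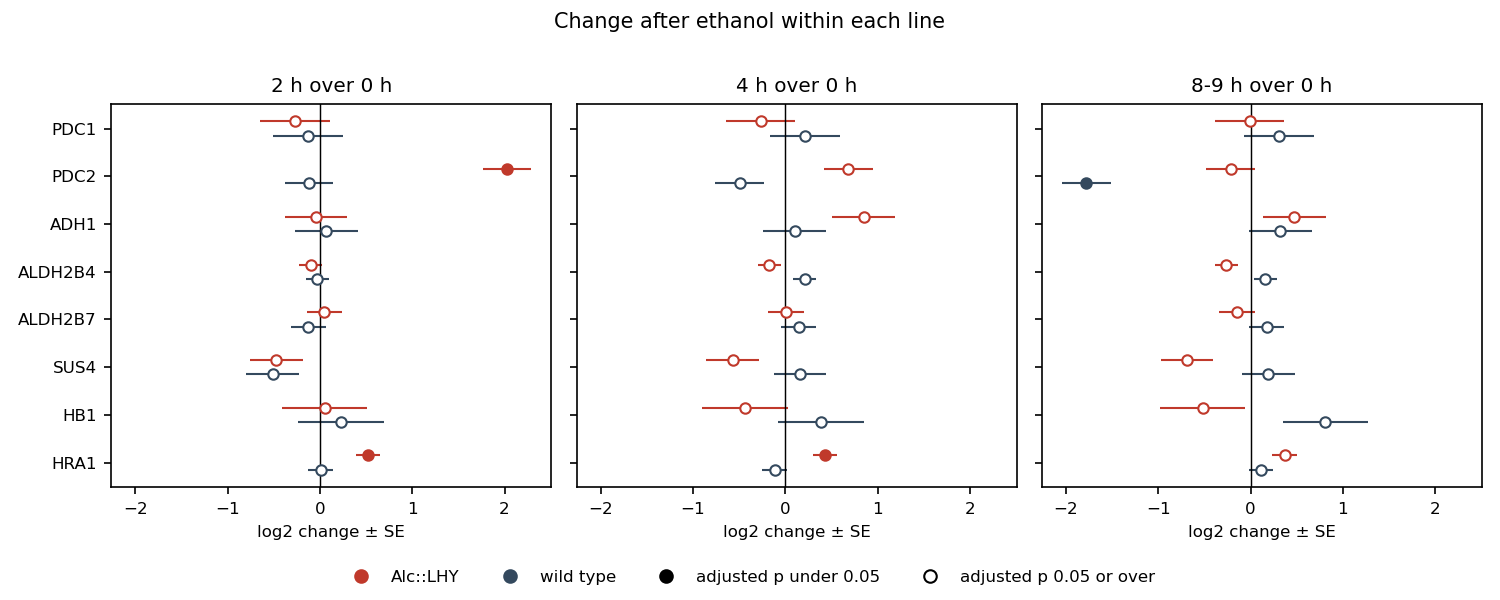
Fitted log2 change from 0 h (horizontal axis, ± standard error) of the 8 tested genes at 2, 4 and 8-9 h, Alc::LHY in red above wild type in dark blue, with filled points for adjusted p under 0.05. PDC2 stands at 2.03 in Alc::LHY at 2 h and at -1.78 in wild type at 8-9 h, and the wild-type points of the other genes are all open.

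The largest changes of a member from 0 h were those of PDC2 in Alc::LHY at 2 h and in wild type at 8-9 h. In Alc::LHY it rose by 2.03 ± 0.26 at 2 h (4.08-fold, adjusted p = 0.00128), with 2.14 in replicate S and 1.91 in replicate I, and it was called in 18 of 18 alternatives. The later changes in Alc::LHY were 0.68 at 4 h (adjusted p = 0.0816), then -0.22 at 8-9 h (adjusted p = 0.567, 95% interval -0.81 to 0.38), so no difference from 0 h was resolved by then. The 4 h change passed without replicate I at 4 h (1.13, adjusted p = 0.016). In wild type PDC2 changed by -0.12 at 2 h, -0.49 at 4 h (adjusted p = 0.44) and fell by 1.78 ± 0.26 at 8-9 h (3.43-fold lower, adjusted p = 0.00716), with -2.02 in replicate S and -1.53 in replicate I. The wild-type fall was called by each of the 3 probes (-1.43 and -0.99 for the dimmer probes). It was lost without replicate S at 8-9 h (-1.42, adjusted p = 0.169), replicate I at 0 h (-1.74, adjusted p = 0.104) or replicate S at 0 h (-1.81, adjusted p = 0.0679), and with median centring (-1.93, adjusted p = 0.0693). It was the 43rd lowest change among 21412 genes in wild type.

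HRA1 rose in Alc::LHY by 0.52 ± 0.13 at 2 h and 0.43 at 4 h, with adjusted p of 0.0285 and 0.0381, and had 0.37 at 8-9 h (adjusted p = 0.0573). In wild type HRA1 changed by 0.01, -0.11 and 0.11, and these values passed no test. The Alc::LHY calls of HRA1 were lost in 7 of 16 alternatives at 2 h and 6 of 16 at 4 h, among them leaving out replicate S at 2 h (0.40, adjusted p = 0.252) or replicate I at 2 h (0.65, adjusted p = 0.0626) for the 2 h change, leaving out replicate S at 4 h (0.43, adjusted p = 0.175) or replicate I at 4 h (0.43, adjusted p = 0.148) for the 4 h change, and leaving out replicate I at 0 h for both (0.44 with adjusted p = 0.227, and 0.35 with adjusted p = 0.262). Without replicate S at 0 h the HRA1 changes were 0.61 (adjusted p = 0.111) and 0.51 (adjusted p = 0.107), and without either 4 h array the 2 h change had an adjusted p of 0.0518. The 8-9 h change passed without replicate S at 8-9 h (0.58, adjusted p = 0.0346).

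The gene that uses ethanol directly, ADH1, gave no called change in wild type. Its wild-type changes were 0.07 at 2 h (95% interval -0.69 to 0.83), 0.10 at 4 h (-0.66 to 0.87) and 0.32 at 8-9 h (-0.44 to 1.09), each of which holds 0. The intervals at 2 h and 4 h stay within a doubling in either direction, and that at 8-9 h reaches just past it. In Alc::LHY the changes of ADH1 were -0.04, 0.85 (adjusted p = 0.0915) and 0.47 (adjusted p = 0.318), with 1.38 in replicate S and 0.32 in replicate I at 4 h. Without replicate I at 4 h the 4 h change of ADH1 passed (1.44, adjusted p = 0.00446), and without either 4 h array so did that at 8-9 h (adjusted p = 0.0482 each). ALDH2B4 changed by -0.26 in Alc::LHY (adjusted p = 0.13) and by 0.16 in wild type at 8-9 h, and neither value was called. SUS4 had -0.47, -0.57 and -0.69 in Alc::LHY (adjusted p = 0.0901 at 8-9 h) and -0.51, 0.16 and 0.19 in wild type. At 8-9 h the wild-type change of 3 low oxygen genes had opposite signs in the 2 replicates: -0.36 and 0.75 for SUS4, -0.27 and 1.89 for HB1, and -0.58 and 1.19 for PDC1 in replicates S and I.

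Ordered from highest to lowest, the 8 line-and-time groups of a gene make 7 neighbouring pairs, and most neighbours overlap. For PDC2, 3 of 7 pairs stood apart: the order runs from Alc::LHY at 2 h (14.62) and 4 h (13.27) down to wild type at 4 h (12.00) and 8-9 h (10.72). HRA1 had 2 of 7 pairs apart, ADH1, ALDH2B4 and SUS4 had 1 each, and PDC1, HB1 and ALDH2B7 had 0. Of the genes not well above background in any channel, PDC3 also had 2 of 7 and LBD41 had 0. The share of such pairs over all genes was not computed, so these counts carry no test. Over the 16 channels the levels of PDC1, HB1 and SUS4 went together, with Pearson's r of 0.755 between PDC1 and HB1, 0.704 between PDC1 and SUS4 and 0.677 between HB1 and SUS4. PDC2 and HRA1 had r = 0.607 and ADH1 and HRA1 0.552, while ADH1 and PDC2 had 0.11, PDC1 and PDC2 -0.411 and ALDH2B4 and HRA1 -0.56. Channels share arrays, dyes and slides, so these values describe the 16 channels and carry no test.

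Among 18444 genes with a locus, those with levels most like PDC2 over the 16 channels were AT2G37580 (r = 0.942), NUB1 (0.915) and EMB2024 (0.895). For HRA1 they were AT5G48335 (0.949), AT3G58930 (0.943) and AT3G48240 (0.942), and for ADH1 MSL4 (0.927), AT4G12370 (0.913) and AT2G45320 (0.891). ALDH2B4 was closest to IAA13 (0.927), SUS4 to UMAMIT27 (0.928), HB1 to HIK (0.835), PDC1 to AT4G14819 (0.848) and ALDH2B7 to NADP-ME1 (0.781). No member was among the 3 genes closest to another member.

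The other genes of the pathway were read from 4 lists: low oxygen response genes, oxygen sensing genes, genes of sucrose use and glycolysis, and genes of the ethanol and acetate route. HRE1, HRE2, PCO1, PCO2, SUS1 and PFK6 stand in more than 1 list. At 0 h 0 genes of the 4 lists differed between the lines by limma, with 2 of the low oxygen response genes, 1 of the oxygen sensing genes, 1 of the glycolysis genes and 0 of the ethanol and acetate route at an unadjusted p under 0.05. Of the 40 low oxygen response genes 32 were tested, and in Alc::LHY 3 were higher and 3 lower at 2 h, 6 and 6 at 4 h, and 4 and 9 at 8-9 h, with median ratios of -0.03, -0.06 and -0.18. The calls ran in both directions, at shares to be read against the 14.2%, 36.7% and 36.7% of all genes called. ACR7, an ACT-domain protein of this list, was lower in Alc::LHY with ratios of -0.70, -1.03 and -0.93 at 2, 4 and 8-9 h, and AT5G42200 with -0.86, -0.96 and -1.08. PP2-A11 was lower with -0.995 at 4 h and -0.78 at 8-9 h, and AT5G66985 was higher at 2 h with 0.67 (adjusted p = 0.0104).

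Of the 14 oxygen sensing genes 12 were tested. At 2 h 0 were called by limma, with 1 at an unadjusted p under 0.05, and the same held at 8-9 h. At 4 h 1 was lower in Alc::LHY: RAP2.12, the group VII ERF that HRA1 restrains, had a ratio of -0.46 (adjusted p = 0.0113). Of all genes, 14.2%, 36.7% and 36.7% were called at 2, 4 and 8-9 h, so the 4 h and 8-9 h counts lie below these shares. In the move of the ratio from 0 h to 4 h, 0 of the 12 were called by limma, with 1 at an unadjusted p under 0.05. All 19 genes of sucrose use and glycolysis were tested, and in Alc::LHY 2 were higher and 1 lower at 2 h, 2 and 3 at 4 h, and 3 and 4 at 8-9 h, with medians of 0.09, -0.05 and 0.04. Called were thus 3, 5 and 7 of 19, shares near the 14.2% of all genes at 2 h, below the 36.7% at 4 h and near the 36.7% at 8-9 h. SUS3, another sucrose synthase, was higher with 1.12 at 2 h and 1.65 at 4 h, with adjusted p of 0.0131 and 0.00149, opposite in sign to SUS4 at 4 h. Before ethanol SUS3 already read 0.51 in replicate S and 0.985 in replicate I, which was not called. In the move of the ratio from 0 h, 0 genes of this list were called higher at 2 h or 4 h. The hexokinase HXK2 was lower with -1.03, -1.25 and -1.05, and GAPC2, a cytosolic glyceraldehyde-3-phosphate dehydrogenase, was lower with -1.07 at 4 h and -0.95 at 8-9 h. FBA8, a cytosolic aldolase, was higher with 0.73 at 2 h and 1.10 at 8-9 h, with adjusted p of 0.021 and 0.00203.

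The list of the ethanol and acetate route also holds haemoglobins and alanine aminotransferases, which do not act on ethanol. Of its 10 genes 9 were tested, and its calls were 3 lower and 0 higher in Alc::LHY at 2 h, 4 lower and 0 higher at 4 h, and 3 lower and 1 higher at 8-9 h. Of all genes, 7.82%, 19.4% and 20.0% were called lower at these times. Its median ratios were -0.15, -0.18 and -0.06, beside 0.00375, -0.00659 and -0.00784 over all genes. HB2, a class 2 haemoglobin, had ratios of -1.19, -1.73 and -1.72 in replicate S and -0.95, -1.52 and -2.35 in replicate I at 2, 4 and 8-9 h, below 0 on all 6 arrays. The fitted values of HB2 were -1.07 ± 0.17 (adjusted p = 0.0105), -1.63 (adjusted p = 0.00113) and -2.04 (adjusted p = 0.000582). ALDH2C4, a cytosolic aldehyde dehydrogenase, had -0.66 at 2 h, -1.87 at 4 h and -1.56 at 8-9 h, with adjusted p of 0.0346, 0.000494 and 0.000805. ACN1, which activates acetate in peroxisomes, was lower with -0.59 at 2 h and -0.76 at 4 h, with adjusted p of 0.0171 and 0.00314. ALAAT2, an alanine aminotransferase, was higher at 8-9 h with 0.46 (adjusted p = 0.0302).

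**Figure D5:**
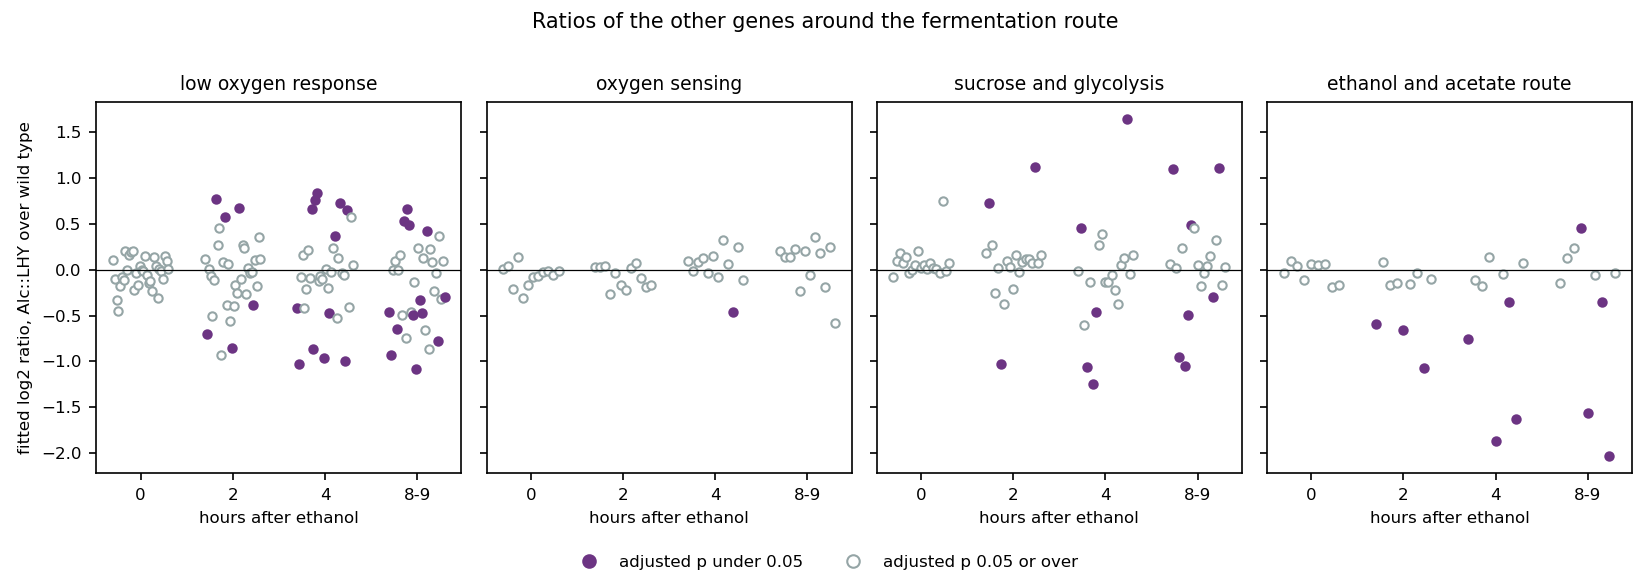
Fitted log2 ratio of Alc::LHY over wild type (vertical axis, shared) at each time for the tested genes of 4 lists around the fermentation route, 1 point per gene, with filled points for adjusted p under 0.05. No point is filled at 0 h, and later calls lie on both sides of 0 in the low oxygen response and glycolysis lists and, but for 1 gene at 8-9 h, below 0 in the ethanol and acetate route.

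In wild type the calls of these lists are to be read against the 0.0607%, 0.841% and 3.82% of all genes called at 2, 4 and 8-9 h. Of the low oxygen response genes 0 were called at 2 h by limma (6 at an unadjusted p under 0.05), PP2-A11 was higher at 4 h with a change of 0.87, and AT3G10020 and AT5G42200 were lower at 8-9 h with -1.37 and -0.85. Of the ethanol and acetate route 0 were called at 2 h and at 4 h by limma, with 3 at an unadjusted p under 0.05 at each, and ACN1 was lower at 8-9 h with -0.84. Of the glycolysis genes 0 were called at any time by limma, with 0, 4 and 3 at an unadjusted p under 0.05 at 2, 4 and 8-9 h. In Alc::LHY the low oxygen response genes had 2 higher and 3 lower at 2 h, 3 and 5 at 4 h, and 2 and 6 at 8-9 h. The ethanol and acetate route had 0 higher at these times, with 1, 4 and 4 lower. Of the glycolysis genes 1 was higher and 2 lower at 2 h, 2 and 3 at 4 h, and 2 and 3 at 8-9 h. Of the oxygen sensing genes 0 were higher and 1 lower at 2 h, 0 and 2 at 4 h, and 2 and 1 at 8-9 h. These counts stand beside 14.9%, 28.2% and 34.4% of all genes called in Alc::LHY. The low oxygen response gene EXL1 had the largest rise named at 2 h, with 2.36 ± 0.34 in Alc::LHY (adjusted p = 0.00225) beside 1.89 in wild type (adjusted p = 0.106). The move of its line ratio from 0 h to 2 h, 0.47, passed no test (adjusted p = 0.648).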

How the data were processed

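RNA of 2-week-old seedlings of both lines was hybridised to 8 Agilent arrays, 16 channels in all. Per the file headers and the submitters' processing notes, the deposited scanner files come from Feature Extraction 10.7.3.1. They hold linear intensity values (median signal and median background per spot and dye) and a deposited log10 ratio of Cy5 over Cy3. In the authors' series matrix this log10 ratio is turned to Alc::LHY over wild type, with a largest difference of 0.00425.

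Median signals stood in for the mean signals of the usual method. They were corrected with normexp (offset 50, which draws ratios of dim probes towards 0) and normalized by loess, without 1417 control features and 161 spots with an outlier flag. A probe needed to be well above background on 2 arrays and to have a value on 6, which left 28465 of 43603 probes, and the brightest probe stood for a gene. Of 35161 accessions 26259 matched a locus. The deposited intensities thereby became log2 ratios, fitted with limma 3.58.1 in R 4.3.3 (4 time coefficients and a dye term, 3 residual and 3.59 prior degrees of freedom). Changes within a line came from the 16 channels after Aquantile normalization (21412 genes, dye and replicate terms, intraspot correlation 0.332). Both fits were tested on simulated data.

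The dye term is also the replicate block. Dixon's test of single samples was not applied, since each group has 2. Members and lists were chosen with earlier results of these data known. List genes were named where they had up to the 3 smallest adjusted p among the called ones of a list in a comparison. Named most alike were the 3 genes of highest Pearson's r. Alternatives left out each array, the dye or replicate term, the filter or the background subtraction, or used median centring, quantile normalization, an intensity trend, the mean of a gene's probes, the scanner software's ratio or the authors' matrix. Fitting each probe on its own was chosen after seeing the data. Some alternatives repeat one another. The authors' matrix nearly equals the scanner software's ratio, and the brightest probe on its own has the ratio already used. Leaving out either array of a time gives the line ratios of the other times the same fit. Counts of alternatives are therefore not counts of separate checks. The number of arrays limits the precision.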

Additional observations from a re-analysis of the deposited data

Results flagged for a closer look

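The difference between Alc::LHY and wild type in PDC2 changed with time after ethanol, tested as the line ratio at a later time minus that at 0 h. The shift was 2.14 at 2 h, 1.18 at 4 h and 1.56 at 8-9 h on the log2 scale (adjusted p = 0.0068, 0.016 and 0.0072). These calls were lost in 3, 6 and 1 of 19 alternatives, with median centring among them at each time. The same tests called 4.12%, 17.3% and 19.1% of all genes. The 3 shifts share the 0 h arrays. For PDC2 the shift was positive in both replicates at each time.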

How the results depend on the processing

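Of 1811 alternative values of the members, 1713 kept their side of the threshold, 74 lost a call, 24 gained one, and 0 called values changed sign. Most of the 1811 belong to values that were not called at first, which keep their side by staying uncalled. Only a called value can lose a call. The losses of called values ran from 0 of 18 alternatives for PDC2 in Alc::LHY at 2 h to 13 of 19 for the ADH1 line ratio at 4 h. Median centring in place of loess called 0 members in each line comparison (against 2, 5 and 4 at 2, 4 and 8-9 h), 0 in each shift from 0 h, 0 in wild type at 8-9 h, and in Alc::LHY 1 at 2 h (against 2) and 0 at 4 h (against 1). It moved the median of all genes to -0.122 at 2 h and 0.109 at 8-9 h, and that of the shifts to -0.143, -0.104 and 0.116. At 4 h 3 members were called, against 5, with the authors' matrix, the scanner software's ratio, the mean of a gene's probes or no background subtraction. Without background subtraction 2 members were called in each shift from 0 h, against 1, and 2 in Alc::LHY at 8-9 h, against 0. An intensity trend gave 2 members in the shift at 8-9 h, and quantile normalization 1 in Alc::LHY at 8-9 h. Without the replicate block the members called between the lines were 2, 4 and 3 at 2, 4 and 8-9 h, and 0 in Alc::LHY at 4 h, against 1, where the lost call was HRA1. Deviations of same-lettered arrays correlated at 0.601 between 0 h and 2 h, and at -0.0162 to 0.262 between the other times. Since letter and dye are a single split, the letters are not shown to pair the samples. Line ratios of all genes correlated between the replicates at -0.386 at 0 h, and at 0.648, 0.809 and 0.866 at 2, 4 and 8-9 h. Every shift and change from 0 h rests on these 0 h arrays. Leaving out 1 array at a time gave 0 members at 0 h, 1 to 2 at 2 h, 1 to 5 at 4 h and 1 to 5 at 8-9 h between the lines, 0 to 1, 0 to 1 and 1 to 2 in the shifts, 0, 0 and 0 to 1 in wild type, and 1 to 2, 0 to 2 and 0 to 1 in Alc::LHY. Channel fits without an array kept the intraspot correlation of all arrays. The cause of these changes was not tested. Levels near background limit PDC3 and LBD41, with mean log2 signals of 6.253 and 6.21. The probes used for SUS4, PDC1 and HRA1 were also dim, at 7.145, 7.256 and 7.383, though well above background in all 16 channels. The offset draws ratios of such dim probes towards 0.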
